A study of Mus musculus with 18 samples.

Results

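The proteasome is the protease complex that degrades proteins tagged with ubiquitin. Its core particle is a stack of rings built from alpha and beta subunits, and the beta subunits encoded by *Psmb5*, *Psmb6* and *Psmb7* carry the constitutive catalytic sites. A regulatory particle, made of a base with ATPases and a lid, binds ubiquitinated substrates, unfolds them and feeds them to the core. Other activators can take its place, among them the interferon-inducible ring formed by the products of *Psme1* and *Psme2*. In dendritic cells (DCs) the complex also cuts proteins into the peptides that are presented on major histocompatibility complex class I, and interferon exchanges the constitutive catalytic subunits for immunoproteasome subunits.

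Members were the entries of the normalized count table whose gene symbol began with Psma, Psmb, Psmc or Psmd followed by a number, or was *Psme1*, *Psme2*, *Psme3* or *Psme4*. The immunoproteasome genes *Psmb8*, *Psmb9* and *Psmb10* and the thymic gene *Psmb11* were left out. Entries also had to reach 10 normalized counts in 3 or more of the 18 libraries. This gave 39 genes of the 62197 in the table, and each of the 39 with a fitting symbol passed this filter, which left 17875 genes to be tested together. By role the members were 8 alpha ring genes, 3 catalytic and 4 structural beta ring genes, 6 ATPases and 3 other subunits of the base, 8 lid subunits, 3 chaperones of base assembly and 4 activators.

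The libraries came from bone marrow-derived DCs grown for 10 days with granulocyte-macrophage colony-stimulating factor. The study asked how DCs respond to a change of cell shape and whether cPLA_2_, a phospholipase that acts at the stretched nuclear envelope, takes part. Polyadenylated RNA was sequenced from 6 groups of 3 libraries. The groups were nonconfined immature cells taken at the end of the culture, immature cells confined at a height of 3 µm with a labelled time of 4 h, and nonconfined cells given 100 ng ml-1 LPS for 30 min, washed and kept until the next day, each labelled either WT or KO for cPLA_2_. The 30 min are from the labels, whose treatment text mentions LPS for every sample, so titles and treatment fields set the groups; the methods give 25 min. The KO model is a conditional *Pla2g4a* allele deleted by a Cre under the *Itgax* promoter, so deletion depends on that promoter in each cell, and controls were littermates or mice of matched age. The labels give no animal age, and the methods name donors of bone marrow aged 6 to 8 weeks. The study's figure legend calls the samples biological replicates, without saying whether these were separate animals or cultures, so p-values measure the spread between these libraries. Recovered reads per library ranged from 33027230 to 61300021.

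*Pla2g4a*, the targeted gene, was read first as a check of the labels. Its normalized counts were 697, 686 and 770 in nonconfined cPLA_2_ WT libraries and 548, 542 and 533 in nonconfined cPLA_2_ KO libraries. In confined cells they were 1369, 1430 and 1321 for cPLA_2_ WT and 923, 871 and 920 for cPLA_2_ KO. In LPS cells they were 1005, 969 and 967 in the libraries labelled cPLA_2_ WT and 1065, 1032 and 1028 in those labelled cPLA_2_ KO. The KO libraries were the lower group both without and with confinement, without overlap, and were not lower in LPS cells. The genotype labels of the LPS libraries were therefore not borne out by the targeted gene, and these groups are called by their labels below. Comparisons of LPS cells of the KO label with nonconfined or confined cPLA_2_ KO cells can thus mix genotype with treatment. In these comparisons genotype and treatment cannot be told apart. Distances between LPS libraries, taken as the mean chi-square of recovered reads over genes with at least 50 reads in a pair, ran from 13.1 to 48.6 within the WT label, from 10.6 to 38.9 within the KO label and from 5.4 to 44.7 across labels. Of the 6 LPS libraries, 4 were nearest to a library with the other label.

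The 39 members together took 0.466% to 0.551% of the reads of a library. Their summed normalized counts were 168625, 170069 and 170000 in nonconfined cPLA_2_ WT libraries and 174736, 161006 and 170848 in nonconfined cPLA_2_ KO libraries. In confined cells the sums were 209233, 198722 and 201680 for cPLA_2_ WT and 183527, 185432 and 186519 for cPLA_2_ KO. In LPS cells they were 267022, 264817 and 262120 under the WT label and 261824, 271119 and 268971 under the KO label. The sums were lowest in nonconfined cells, higher in confined KO cells, higher again in confined WT cells and highest after LPS, and these 4 levels did not overlap. Part of the order depends on scale, because the mean total of normalized counts per library differed between groups. It was 34125100 in nonconfined cPLA_2_ WT cells, 39890270 in confined cPLA_2_ WT cells, 35818964 in confined cPLA_2_ KO cells and 48718670 in LPS cells labelled cPLA_2_ WT. As a share of reads the members took 0.515%, 0.506% and 0.507% in confined cPLA_2_ WT libraries and 0.505%, 0.527% and 0.519% in confined cPLA_2_ KO libraries. On that scale the confined genotypes overlapped, and the step from confined KO to confined WT cells was not seen. Nonconfined libraries had 0.466% to 0.5% and LPS libraries 0.539% to 0.551%. The order of nonconfined, confined and LPS libraries thus held as a share of reads, without overlap.

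Changes are given as log2 fold changes of normalized counts plus 1, and a gene was called at an adjusted p under 0.05 over all genes tested by limma. Setting each library to the same total moved the median change of all genes by more than 0.1, to −0.23 for confinement of cPLA_2_ WT cells, 0.24 for the interaction of confinement and genotype, 0.19 for KO against WT confined cells, −0.47 and −0.44 for LPS under the WT and KO labels, and 0.26 and 0.46 for confined against LPS cells. Taken relative to the median of all genes, each of the 390 values of a member in a comparison differed by at most 0.02 between the deposited scaling, the same total and TMM scaling. This follows by construction, because a scaling shifts all genes of a comparison almost alike, and it is no separate check of a result. Confined and LPS cells were compared with the same nonconfined libraries, so these comparisons share controls and are not independent. LPS cells were washed and kept until the next day, unlike nonconfined and confined cells. LPS therefore cannot be told apart from this further time in culture. Statements that a gene changed after LPS, or that LPS raised it, describe the difference between these groups.

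In cPLA_2_ WT cells, 26 of the 39 members rose and 1 fell upon confinement, while 28.2% of all genes tested rose and 28.4% fell. The median change of the members was 0.23, against −0.01 for all genes, and 34 of the 39 lay above the median of all genes. With the same total in each library 13 members rose and 11 fell, beside 20.0% and 41.3% of all genes. *Psmb6* was the 1 member that rose by more than 1 on the log2 scale, where 11.4% of all genes did. Leaving out replicate 1 of the confined cPLA_2_ WT libraries brought the members that fell to 2.

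In cPLA_2_ KO cells, 17 members rose and 3 fell upon confinement, with 22.8% and 23.4% of all genes. The median was 0.14, against 0.01 for all genes, and 30 members lay above the median of all genes. At the same total per library 16 rose and 6 fell, beside 20.8% and 25.9% of all genes. Of the members that rose, 16 did so in both genotypes, which is 16 of 26 in cPLA_2_ WT and 16 of 17 in cPLA_2_ KO cells. Of all genes tested 16.4% rose in both, which is 58.1% of those that rose in cPLA_2_ WT and 71.7% of those that rose in cPLA_2_ KO cells.

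The interaction tested whether the change upon confinement differed between the genotypes. It was negative, that is lower in cPLA_2_ KO cells, for 7 members and positive for 0, while 10.2% of all genes were called positive and 15.6% negative. The 7 are 17.9% of the members, near the share of all genes called negative. These 7 were *Psme2*, *Psmb6*, *Psma6*, *Psmd10*, *Psme1*, *Psmb7* and the base ATPase *Psmc4*, the last of them named after its values were seen. The median interaction was −0.09, against 0.05 for all genes, 4 of the 39 members lay above the median of all genes, and 15 had an unadjusted p under 0.05. The count called negative depends on the tool, the scaling and 1 library. By edgeR it was 13 (33.3% of the members, beside 16.8% of all genes), by DESeq2 11 (28.2%, beside 16.6%) and with TMM scaling 13 (33.3%, beside 17.2%), with 0 positive in each case, beside 8.73%, 10.9% and 8.46% of all genes. Without replicate 2 of the nonconfined cPLA_2_ KO libraries it was 13, beside 15.6%. These 4 shares of members were above those of all genes, a description with no test. Scaled to the same total, 15 members were called positive and 5 negative, beside 26.5% and 11.0% of all genes. The 5 called negative were *Psme2*, *Psmb6*, *Psma6*, *Psmd10* and *Psme1*. Still 4 of 39 members lay above the median of all genes, a measure that scaling leaves nearly unchanged by construction.

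Set against cPLA_2_ WT cells directly, confined cPLA_2_ KO cells had 17 members lower and 0 higher, beside 20.6% of all genes lower and 18.8% higher. The median was −0.08, against 0.04 for all genes, and 4 of the 39 values lay above the median of all genes. By edgeR 19 and by DESeq2 18 members were lower, beside 22.0% and 21.6% of all genes, and 0 were higher by either, beside 16.4% and 18.2%. TMM scaling gave 19 lower, beside 22.1%. At the same total 5 were lower and 15 higher, beside 14.6% and 33.6% of all genes. Leaving out replicate 1 of the confined cPLA_2_ WT libraries gave 1 member that was higher. In nonconfined cells 1 member was lower in cPLA_2_ KO cells and 0 were higher, beside 4.11% and 4.78% of all genes, with 5 members at an unadjusted p under 0.05 and 17 of 39 above the median of all genes. Scaled to the same total 3 were lower and 0 higher, beside 5.85% and 4.23% of all genes. DESeq2 called 2 lower and 1 higher, beside 6.42% and 7.32% of the 14756 genes it gave an adjusted p, and edgeR 1 lower and 0 higher, beside 3.68% and 5.14%. TMM scaling gave 1 lower and 1 higher, beside 3.84% and 5.07%. Without replicate 2 of the nonconfined cPLA_2_ KO libraries, 2 members were higher, beside 5.44%. The member called lower was *Psmd1*, joined by *Psmd3* and *Psmc1* with the same total and by *Psmd3* in DESeq2. Those called higher were *Psmd4* in DESeq2 and with TMM scaling, and *Psmd4* and *Psmd10* without that library. *Psmd3*, *Psmc1* and *Psmd4* are named after their values were seen.

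After LPS, 35 members were higher and 0 lower under the WT label, beside 33.4% and 29.4% of all genes. Under the KO label 36 were higher and 1 lower, beside 33.4% and 30.1% of all genes. The medians were 0.54 and 0.56, against 0.03 and 0.02 for all genes, and 37 of 39 members lay above the median of all genes under each label. With the same total 13 members were higher and 10 lower under the WT label, beside 17.8% and 52.0% of all genes, and 19 were higher and 11 lower under the KO label, beside 18.3% and 51.4%. A log2 change above 1 was found for 5 members under the WT label and 6 under the KO label, beside 15.0% of all genes under each. For the count of 0 lower members under the WT label, 36 members had an unadjusted p under 0.05 in either direction, and edgeR and DESeq2 each called 1 lower, *Psmd9*, beside 31.4% and 31.0% of all genes. Between the labels, limma called 0 members higher and 0 lower, beside 0% of all genes in either direction. Of all genes 890 had an unadjusted p under 0.05, of the members 0 had, and edgeR and DESeq2 called 0 genes. These fits did not pair libraries across the labels. By the distances above, the closest LPS libraries were replicate 2 of the WT and 1 of the KO label, at 5.4. Replicate 3 of each label came next, at 6.6. Whether pairing such libraries changes the counts was not tested.

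Confined cells set against LPS cells of the WT label had 2 members higher and 35 lower, beside 21.6% and 27.2% of all genes, with a median of −0.31 against −0.02. Under the KO label 2 were higher and 34 lower, beside 28.1% and 30.6% of all genes, with a median of −0.42 against 0.02. With the same total 9 were higher and 10 lower under the WT label, beside 41.1% and 13.7% of all genes, and 14 were higher and 10 lower under the KO label, beside 53.8% and 15.7%. Relative to the median of all genes, 3 of 39 members were higher in confined than in LPS cells under each label. The comparison under the KO label can mix genotype with treatment, since *Pla2g4a* did not bear out that label in LPS cells. The members called higher numbered 1 under the WT label without replicate 1 of the confined or replicate 1 or 3 of the LPS libraries, and 1 under the KO label without replicate 2 of the confined or replicate 1 of the LPS libraries. With the LPS labels exchanged, a setting chosen after seeing the data, 1 member was higher in each comparison.

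**Figure D1:**
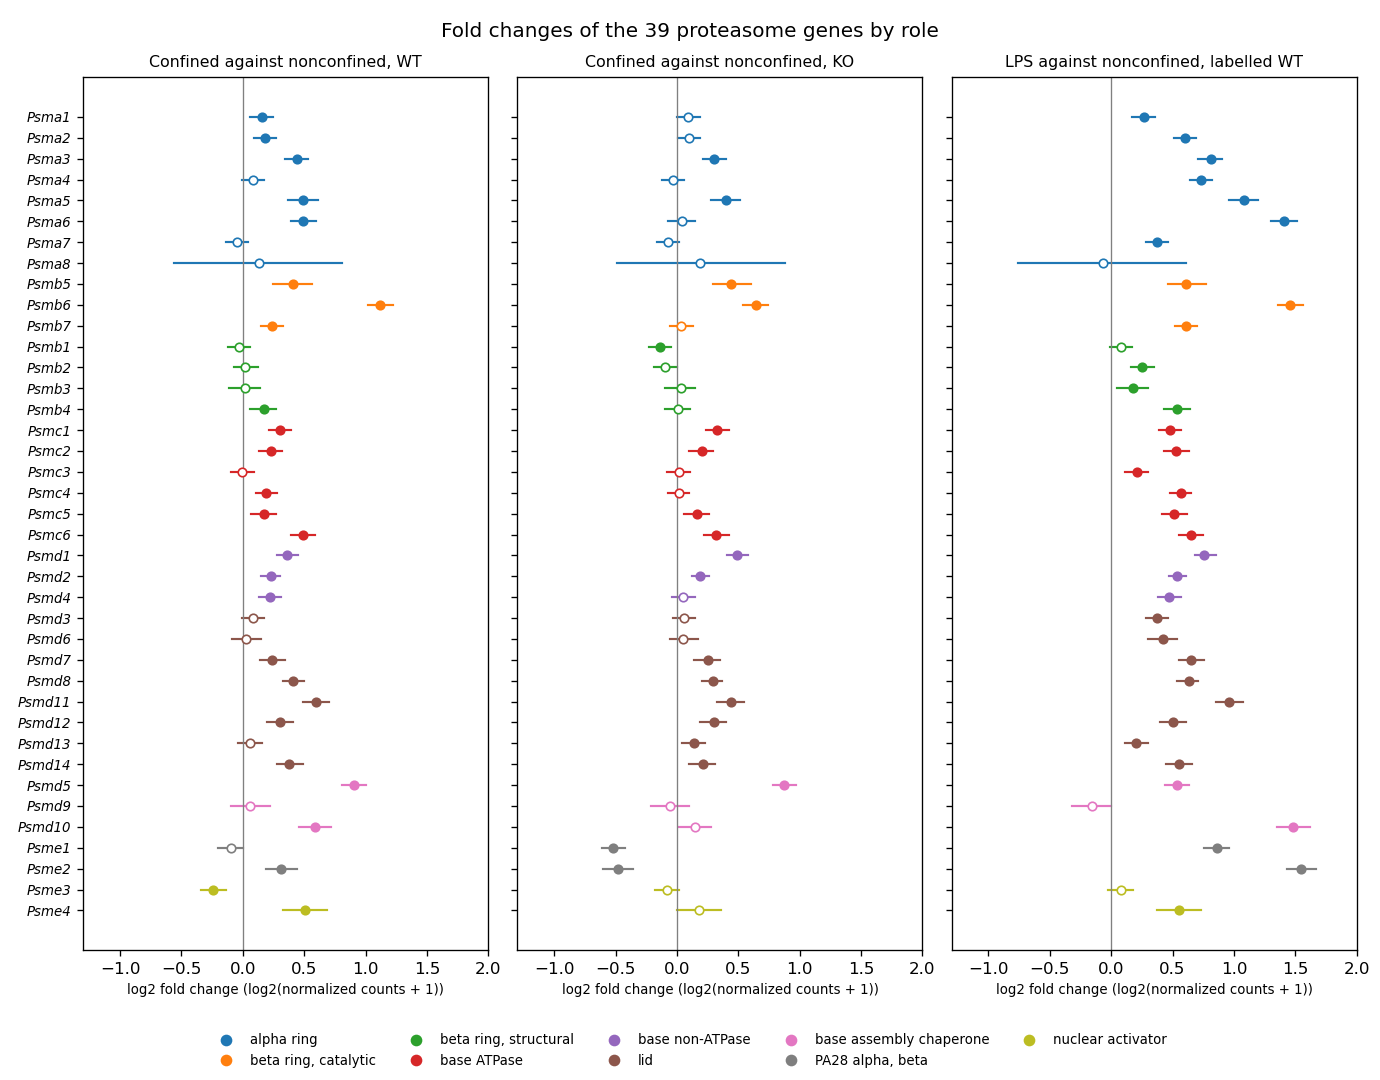
Log2 fold changes of the 39 members, ordered by role, for confinement of cPLA_2_ WT cells, confinement of cPLA_2_ KO cells and LPS under the WT label, each against nonconfined cells. Lines are 95% confidence intervals, filled points have an adjusted p under 0.05, and the points run from −0.24 to 1.12 in the first panel, from −0.52 to 0.87 in the second and from −0.16 to 1.55 in the third.

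The alpha ring forms the gate through which substrates enter the core. Among its 8 genes, 5 rose and 0 fell in confined cPLA_2_ WT cells, with a median of 0.17 and a range from −0.05 to 0.49. In confined cPLA_2_ KO cells 2 rose and 0 fell, with a median of 0.10. After LPS 7 rose under each label, with medians of 0.67 and 0.70. The counts depend on scale. At the same total per library 3 rose and 2 fell in confined cPLA_2_ WT cells, 2 rose and 1 fell in confined cPLA_2_ KO cells, and after LPS 4 rose and 2 fell under the WT label and 5 rose and 3 fell under the KO label.

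*Psma6* showed the largest change of the alpha ring genes after LPS and, beside *Psma5* with the same 0.49, upon confinement of cPLA_2_ WT cells. Its normalized counts were 5255, 5663 and 5352 in nonconfined cPLA_2_ WT libraries, 5742, 4923 and 5119 in nonconfined cPLA_2_ KO libraries, 7760, 7429 and 7724 in confined cPLA_2_ WT libraries and 5342, 5440 and 5448 in confined cPLA_2_ KO libraries. The LPS libraries had 13607, 14873 and 14631 under the WT label and 15454, 14321 and 14768 under the KO label. Confined WT libraries all lay above the nonconfined ones, confined KO libraries lay inside the nonconfined range, and LPS libraries stood far above every other group. Confinement changed *Psma6* by 0.49 ± 0.05 (SE) in cPLA_2_ WT cells (limma, adjusted p = 5.03e-08) and by 0.04 ± 0.05 in cPLA_2_ KO cells (adjusted p = 0.531), and the interaction was −0.45 ± 0.07 (adjusted p = 7.26e-05). After LPS it rose by 1.41 ± 0.05 under the WT label (adjusted p = 7.83e-16) and 2.83-fold under the KO label (adjusted p = 2.61e-16).

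*Psma8*, which encodes the alternative alpha subunit of the testis, was the member with the lowest counts. Its 18 values ran from 8.49 to 33.1 normalized counts, and the fold change of so low a gene is understated by the added count. Libraries labelled LPS cPLA_2_ KO had 8.49, 14.9 and 13.6, and nonconfined cPLA_2_ KO libraries had 18, 25.1 and 20.4. The LPS libraries were the lower group here, without overlap. The change was −0.76 ± 0.33 (limma, adjusted p = 0.0495), and the call was lost by edgeR, where the adjusted p was 0.0575, by DESeq2, where it was 0.0798, and without any 1 of the 6 libraries compared other than replicate 2 of the LPS group, where the adjusted p ran from 0.0527 to 0.21. Against confined cPLA_2_ KO cells the difference was 0.95 ± 0.33 (adjusted p = 0.0169), and without replicate 2 of the confined or replicate 1 of the LPS group the adjusted p was 0.0909 and 0.0913.

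The 3 catalytic beta genes had the highest median change of the core genes upon confinement. All 3 rose in cPLA_2_ WT cells, with a median of 0.41, and 2 of 3 rose in cPLA_2_ KO cells, with a median of 0.44. After LPS all 3 rose under each label. On the scale of the same total 2 rose upon confinement in each genotype, and after LPS 1 rose under the WT label and 2 under the KO label.

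*Psmb6* encodes the beta1 subunit, which cuts after acidic residues and is replaced by the product of *Psmb9* in immunoproteasomes. Its normalized counts were 6904, 6565 and 6560 in nonconfined cPLA_2_ WT libraries, 7036, 6462 and 7021 in nonconfined cPLA_2_ KO libraries, 14965, 14352 and 14282 in confined cPLA_2_ WT libraries and 10276, 10752 and 10839 in confined cPLA_2_ KO libraries. Under LPS the values were 19352, 17765 and 18079 with the WT label and 17016, 18638 and 18579 with the KO label. Nonconfined libraries of both genotypes overlapped, and the confined KO, confined WT and LPS libraries followed in 3 steps without overlap. The step from confined WT to LPS libraries depends on scale, since the difference between them, −0.34, was −0.05 and not called with the same total (limma, adjusted p = 0.314). Confinement raised *Psmb6* by 1.12 ± 0.05 in cPLA_2_ WT cells, 2.18-fold (limma, adjusted p = 1.57e-14), and by 0.64 ± 0.05 in cPLA_2_ KO cells, 1.55-fold (adjusted p = 5.46e-10). The interaction was −0.49 ± 0.07 (adjusted p = 9.3e-06), and LPS raised the gene by 1.46 ± 0.05 and 1.40 ± 0.05 under the WT and KO labels (adjusted p = 8.45e-17 and 1.81e-16). The gene lies at chr11:70416183-70418684 of GRCm39, and no other protein-coding gene overlaps it in GENCODE.

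*Psmb5* encodes the beta5 subunit, which cuts after hydrophobic residues. It had 3313, 3443 and 3344 normalized counts in nonconfined cPLA_2_ WT libraries, 3627, 3025 and 3727 in nonconfined cPLA_2_ KO libraries, 4685, 4288 and 4421 in confined cPLA_2_ WT libraries and 4516, 4796 and 4747 in confined cPLA_2_ KO libraries. The libraries of LPS cells held 5821, 4785 and 4920 under the WT label and 4759, 5226 and 5135 under the KO label. Confined libraries of both genotypes overlapped each other and lay above all nonconfined ones, and the lowest LPS libraries reached down to the highest confined KO library. Confinement raised *Psmb5* by 0.41 ± 0.07 in cPLA_2_ WT cells (limma, adjusted p = 6.17e-05) and by 0.44 ± 0.07 in cPLA_2_ KO cells (adjusted p = 3.69e-05). The interaction was 0.04, with a 95% confidence interval from −0.18 to 0.25 (adjusted p = 0.84). With the same total the interaction was 0.23 and not called. The confined genotypes then differed by 0.23 and this was called (limma, adjusted p = 0.00851), against 0.07, not called, with the deposited scaling. After LPS the rise was 0.61 under the WT label (adjusted p = 1.88e-07) and, with the same total, 0.10 (adjusted p = 0.184). The difference between confined and LPS cells of the WT label, −0.21, was not called by edgeR (−0.14, adjusted p = 0.114) or with TMM scaling (−0.14, adjusted p = 0.127) and was −0.18, −0.20 and −0.12, each not called, without replicate 2 or 3 of the confined or replicate 1 of the LPS libraries, and it turned to 0.08 with the same total.

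*Psmb7* encodes the beta2 subunit, which cuts after basic residues. Its normalized counts were 3945, 4039 and 4166 in nonconfined cPLA_2_ WT libraries, 4087, 3827 and 4209 in nonconfined cPLA_2_ KO libraries, 4795, 4600 and 4941 in confined cPLA_2_ WT libraries and 4093, 4097 and 4196 in confined cPLA_2_ KO libraries. For LPS cells they were 6018, 6372 and 6150 under the WT label and 6040, 6309 and 6353 under the KO label. Confined WT libraries stood above the nonconfined ones, whereas the confined KO libraries lay among them. The change upon confinement was 0.24 ± 0.04 in cPLA_2_ WT cells (limma, adjusted p = 0.000104; with the same total 0.01, adjusted p = 0.811) and 0.03 ± 0.04 in cPLA_2_ KO cells (adjusted p = 0.593). The interaction of −0.21 ± 0.06 (adjusted p = 0.0193) was not called without replicate 1 of the nonconfined cPLA_2_ WT (adjusted p = 0.0515), replicate 3 of the nonconfined cPLA_2_ KO (0.0627) or replicate 3 of the confined cPLA_2_ WT libraries (0.0588), nor with the same total (−0.02, adjusted p = 0.85).

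The 4 structural beta genes have no catalytic site. In confined cPLA_2_ WT cells 1 of them rose and 0 fell, with a median of 0.02 and a range from −0.03 to 0.17, and in confined cPLA_2_ KO cells 0 rose and 1 fell. The latter was *Psmb1*, with 8493, 7553 and 8229 normalized counts in nonconfined and 7069, 7512 and 7408 in confined cPLA_2_ KO libraries. The confined libraries were lower by a small margin and without overlap. The change was −0.14 ± 0.04 (limma, adjusted p = 0.0105), and it was not called without replicate 1 of the nonconfined (adjusted p = 0.0669) or of the confined group (adjusted p = 0.0557), nor with the compared groups alone (adjusted p = 0.0554). After LPS 3 of the 4 genes rose under each label, with medians of 0.21 and 0.29. Scaled to the same total, 0 rose in any of these comparisons, with 3 falling in confined cPLA_2_ WT cells, 2 in confined cPLA_2_ KO cells and 3 after LPS under each label.

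The 6 ATPases of the base unfold the substrate. Upon confinement 5 rose in cPLA_2_ WT cells, with a median of 0.21, and 4 rose in cPLA_2_ KO cells, with a median of 0.18, and 0 fell in either genotype. The other 3 base subunits, *Psmd1*, *Psmd2* and *Psmd4*, which hold receptors and docking sites for ubiquitin chains, rose in 3 of 3 cases in cPLA_2_ WT cells and in 2 of 3 in cPLA_2_ KO cells. After LPS all 9 base genes rose under each label with the deposited scaling. Their changes ran from 0.21 for *Psmc3* to 0.76 for *Psmd1* under the WT label. These rises depend on scale as well. At the same total 2 of the 9 rose and 1 fell in confined cPLA_2_ WT cells, with a median of 0.00, and 6 rose and 0 fell in confined cPLA_2_ KO cells, with a median of 0.15. After LPS 2 rose and 1 fell on that scale under the WT label, from −0.30 for *Psmc3* to 0.25 for *Psmd1*, and 4 rose and 2 fell under the KO label.

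*Psmd1*, the large scaffold of the base, was the 1 member called lower in nonconfined cPLA_2_ KO than cPLA_2_ WT cells. Its normalized counts were 6356, 6768 and 6618 in nonconfined cPLA_2_ WT libraries, 5844, 5991 and 5970 in nonconfined cPLA_2_ KO libraries, 8368, 8418 and 8586 in confined cPLA_2_ WT libraries and 8760, 8075 and 8240 in confined cPLA_2_ KO libraries. Nonconfined KO libraries formed the lowest group, and the confined libraries of both genotypes overlapped each other. The nonconfined difference was −0.15 ± 0.04 (limma, adjusted p = 0.0277). It was not called without replicate 2 or 3 of the cPLA_2_ WT libraries (adjusted p = 0.129 and 0.0943) or replicate 1 or 3 of the cPLA_2_ KO libraries (0.106 and 0.0726), nor with no filter on low counts (0.05). Upon confinement the gene rose by 0.36 ± 0.04 in cPLA_2_ WT cells (adjusted p = 1.51e-07) and by 0.49 ± 0.04 in cPLA_2_ KO cells (adjusted p = 2.98e-09), with an interaction of 0.13 ± 0.06 (adjusted p = 0.109; with the same total 0.32, adjusted p = 9.21e-05). In GENCODE 24 of the 39 members overlap no other coding gene, 14 overlap a gene on the opposite strand and 2, among them *Psmd1*, overlap a gene on the same strand, so that reads can be shared.

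The lid removes ubiquitin from the substrate, and it has 8 genes among the members. Upon confinement 5 rose in cPLA_2_ WT cells and 6 in cPLA_2_ KO cells, with medians of 0.27 and 0.23, 0 fell, and limma called the interaction for 0 of them, with 2 at an unadjusted p under 0.05. After LPS all 8 rose under each label with the deposited scaling. At the same total 3 rose and 3 fell in confined cPLA_2_ WT cells, 5 rose and 0 fell in confined cPLA_2_ KO cells, and the interaction was called positive for 5. After LPS 3 rose and 2 fell on that scale under the WT label, from −0.31 for *Psmd13*, named after its values were seen, to 0.45 for *Psmd11*, and 5 rose and 1 fell under the KO label.

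*Psmd11*, a lid subunit needed for assembly of the complete proteasome, had the largest lid change. It had 2121, 2117 and 2095 normalized counts in nonconfined cPLA_2_ WT libraries, 2088, 1992 and 1974 in nonconfined cPLA_2_ KO libraries, 3411, 3067 and 3103 in confined cPLA_2_ WT libraries and 2730, 2637 and 2869 in confined cPLA_2_ KO libraries. LPS libraries ranged from 3938 to 4390. The order was nonconfined, confined KO, confined WT and LPS, with no overlap between these steps. The difference between the confined genotypes was, with the same total, −0.06 (limma, adjusted p = 0.267) and that between confined and LPS cells of the WT label −0.08 (adjusted p = 0.159), and neither was called. The gene rose by 0.60 ± 0.05 in confined cPLA_2_ WT cells (limma, adjusted p = 2.73e-09) and by 0.44 ± 0.05 in confined cPLA_2_ KO cells (adjusted p = 4.75e-07). The interaction of −0.15 ± 0.07 was not called (adjusted p = 0.143).

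The 3 assembly chaperones hold the base ATPases before the regulatory particle is complete and are not part of the finished proteasome. *Psmd5* and *Psmd10* rose upon confinement of cPLA_2_ WT cells and after LPS under each label, although for *Psmd5* the LPS calls were lost with the same total. *Psmd9* was not called in these comparisons by limma with the deposited scaling, but other settings called it lower after LPS.

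*Psmd5* had 1365, 1329 and 1343 normalized counts in nonconfined cPLA_2_ WT libraries, 1376, 1400 and 1363 in nonconfined cPLA_2_ KO libraries, 2643, 2413 and 2517 in confined cPLA_2_ WT libraries and 2532, 2497 and 2563 in confined cPLA_2_ KO libraries. After LPS it had 1944, 1951 and 1958 under the WT label and a mean of 1989 (SD 43.7, n = 3) under the KO label. Here the confined libraries were the highest, the LPS libraries came between them and the nonconfined ones, and the genotypes overlapped at each step. Confinement raised *Psmd5* by 0.91 ± 0.05 in cPLA_2_ WT cells (limma, adjusted p = 2.43e-13) and by 0.87 ± 0.05 in cPLA_2_ KO cells (adjusted p = 1.42e-12), with an interaction of −0.03 and a 95% confidence interval from −0.16 to 0.10 (adjusted p = 0.776; with the same total 0.16, adjusted p = 0.0477). After LPS it rose by 0.54 and 0.53 under the WT and KO labels (adjusted p = 9.61e-10 and 1.23e-09), and with the same total the changes were 0.02 and 0.05 (adjusted p = 0.66 and 0.329). The level in confined cells exceeded that in LPS cells by 0.37 ± 0.05 under the WT label (adjusted p = 6.14e-07) and by 0.35 ± 0.05 under the KO label (adjusted p = 9.64e-07).

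*Psmd10*, which encodes the chaperone and oncoprotein gankyrin, had 1262, 1268 and 1277 normalized counts in nonconfined cPLA_2_ WT libraries, 1520, 1270 and 1419 in nonconfined cPLA_2_ KO libraries, 1907, 1886 and 1944 in confined cPLA_2_ WT libraries and 1541, 1544 and 1568 in confined cPLA_2_ KO libraries. LPS libraries had 3785, 3284 and 3606 under the WT label and 3428, 3834 and 3885 under the KO label. Confined KO libraries lay just above the highest nonconfined KO library, confined WT libraries lay clearly higher, and the LPS libraries were the highest. The change upon confinement was 0.59 ± 0.06 in cPLA_2_ WT cells (limma, adjusted p = 7.39e-08) and 0.15 ± 0.06 in cPLA_2_ KO cells (adjusted p = 0.0641), with an interaction of −0.44 ± 0.09 (adjusted p = 0.000816). LPS raised it by 1.48 ± 0.06 under the WT label (adjusted p = 1.05e-14). *Psmd9*, the last of the 3, changed by −0.16 after LPS under the WT label (limma, adjusted p = 0.0689). It was called lower there by edgeR (−0.21, adjusted p = 0.021), by DESeq2 (−0.19, 0.0306), with TMM scaling (−0.21, 0.0225), with the compared groups alone (−0.16, 0.0298) and with the same total (−0.67, 5.19e-08). Under the KO label the change of −0.11 (adjusted p = 0.216) was called with the same total (−0.59, 3.82e-07) and without replicate 2 of the nonconfined libraries (−0.18, 0.0432). The gene was higher in confined than in LPS cells of the WT label by 0.22 ± 0.08 (adjusted p = 0.0203), a call lost without replicate 1 of the confined libraries (adjusted p = 0.111) or replicate 1 or 3 of the LPS libraries (0.0524 and 0.0725).

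The activator genes *Psme1* and *Psme2* encode the alpha and beta chains of a ring that opens the core without ATP and is induced by interferon-γ. They face each other on chromosome 14, at chr14:55815907-55818984 on the plus strand and chr14:55824897-55828558 on the minus strand of GRCm39, and each overlaps a coding gene on the opposite strand. *Psme2* had the lowest interaction of the 39 members.

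*Psme2* had 3322, 3231 and 3484 normalized counts in nonconfined cPLA_2_ WT libraries, 3485, 3244 and 3472 in nonconfined cPLA_2_ KO libraries, 4319, 4053 and 4111 in confined cPLA_2_ WT libraries and 2223, 2443 and 2666 in confined cPLA_2_ KO libraries. LPS libraries had 10044, 9562 and 9819 under the WT label and 9485, 10342 and 10507 under the KO label. Confined WT libraries were all above and confined KO libraries all below the nonconfined range, and LPS libraries were higher than any of these. Confinement raised *Psme2* by 0.31 ± 0.06 in cPLA_2_ WT cells (limma, adjusted p = 8.39e-05) and lowered it in cPLA_2_ KO cells, where the change was −0.48 ± 0.06 (adjusted p = 7e-07). With the same total in each library the rise in cPLA_2_ WT cells was 0.09 and was not called (adjusted p = 0.167). The interaction was −0.79 ± 0.08 (adjusted p = 1.37e-07), LPS raised the gene by 1.55 ± 0.06 and 1.57 ± 0.06 under the WT and KO labels (adjusted p = 8.52e-16 and 7.13e-16), and confined cells lay below LPS cells by −1.24 ± 0.06 and −2.05 ± 0.06 (adjusted p = 1.94e-13 and 7.22e-18). The row joined as *Psme2b* and 9930111J21Rik1 holds a retrocopy that can share reads with *Psme2*. It had 1812, 1807 and 1915 normalized counts in nonconfined and 1838, 1885 and 2012 in confined cPLA_2_ WT libraries, and 1135, 1557 and 1259 in nonconfined and 834, 723 and 784 in confined cPLA_2_ KO libraries. LPS libraries held 3208, 3246 and 3245 under the WT label and 3093, 2770 and 2836 under the KO label. In this row the KO label was the lower one without overlap, although limma called 0 genes between the LPS labels.

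*Psme1* had 7871, 7655 and 7480 normalized counts in nonconfined cPLA_2_ WT libraries, 8409, 7684 and 8485 in nonconfined cPLA_2_ KO libraries, 7451, 6766 and 7240 in confined cPLA_2_ WT libraries and 5763, 5821 and 5596 in confined cPLA_2_ KO libraries. LPS libraries had 13741, 14708 and 13382 under the WT label and 13565, 13776 and 13416 under the KO label. Confined KO libraries were the lowest, confined WT libraries came just under the nonconfined ones, and LPS libraries were the highest. The change upon confinement was −0.10 ± 0.05 in cPLA_2_ WT cells (limma, adjusted p = 0.0762; without replicate 1 of the confined libraries −0.13, adjusted p = 0.0406; with the same total −0.33, adjusted p = 2.78e-06) and −0.52 ± 0.05 in cPLA_2_ KO cells (adjusted p = 1.39e-08). The interaction was −0.41 ± 0.07 (adjusted p = 6.73e-05), and LPS raised the gene by 0.86 ± 0.05 under the WT label (adjusted p = 7.69e-13).

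The nuclear activators *Psme3* and *Psme4* moved in opposite directions in confined cPLA_2_ WT cells. *Psme3*, the nuclear relative of the interferon-inducible ring, had 2331, 2343 and 2281 normalized counts in nonconfined and 1983, 1886 and 2027 in confined cPLA_2_ WT libraries, and 2141, 2206 and 2186 in nonconfined and 2089, 2103 and 1984 in confined cPLA_2_ KO libraries. Confined libraries were below nonconfined ones in each genotype, by a wider margin in WT cells. The change was −0.24 ± 0.05 in cPLA_2_ WT cells (limma, adjusted p = 0.000289) and −0.08 ± 0.05 in cPLA_2_ KO cells (adjusted p = 0.19), and the interaction was 0.16 ± 0.07 (adjusted p = 0.107). The change in cPLA_2_ KO cells was −0.12 with the same total and was called (adjusted p = 0.0488), as was the interaction, at 0.35 (adjusted p = 0.000424). The confined genotypes then differed by 0.22 (adjusted p = 0.000631), against 0.07 with the deposited scaling (adjusted p = 0.31). Relative to the median of all genes the interaction was 0.11 under each scaling, an equality that follows by construction. After LPS the values were 2411, 2479 and 2449 under the WT label and 2293, 2589 and 2401 under the KO label, with changes of 0.08 ± 0.05 (adjusted p = 0.181) and 0.16 ± 0.05 (adjusted p = 0.00926). These turned to −0.44 and −0.32 with the same total, while relative to the median of all genes they were 0.05 and 0.13 with the deposited scaling. The call under the KO label was lost without replicate 2 of the LPS group (0.11, adjusted p = 0.076), by edgeR (0.11, adjusted p = 0.0717), with TMM scaling (0.10, adjusted p = 0.0718) and with the compared groups alone (0.16, adjusted p = 0.0501).

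*Psme4*, which encodes a large monomeric activator, had 662, 633 and 539 normalized counts in nonconfined and 829, 819 and 964 in confined cPLA_2_ WT libraries, and 694, 565 and 610 in nonconfined and 701, 733 and 678 in confined cPLA_2_ KO libraries. LPS libraries ranged from 855 to 914. Confined WT libraries lay above all nonconfined ones and overlapped the LPS libraries, whereas confined and nonconfined KO libraries overlapped. The change was 0.51 ± 0.09 in cPLA_2_ WT cells (limma, adjusted p = 3.09e-05) and 0.18 ± 0.09 in cPLA_2_ KO cells (adjusted p = 0.0963; 0.26 and 0.0251 without replicate 1 of the nonconfined libraries). The interaction of −0.33 ± 0.12 missed the threshold (adjusted p = 0.0513) and passed it by edgeR (adjusted p = 0.0296), by DESeq2 (0.0346) and without replicate 1 of the nonconfined cPLA_2_ WT (0.0303), replicate 2 of the nonconfined cPLA_2_ KO (0.0201) or replicate 2 of the confined cPLA_2_ WT libraries (0.0439). By limma it also passed with TMM scaling (adjusted p = 0.03), a filter of 100 normalized counts (0.0389) and a pseudocount of 5 (0.0499). With the same total the interaction was only −0.14 and was not called. The difference of −0.30 ± 0.09 between the genotypes in confined cells (adjusted p = 0.00796) was not called without replicate 3 of the confined cPLA_2_ WT libraries (−0.23, adjusted p = 0.0634) or with the same total (−0.15, adjusted p = 0.167).

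**Figure D2:**
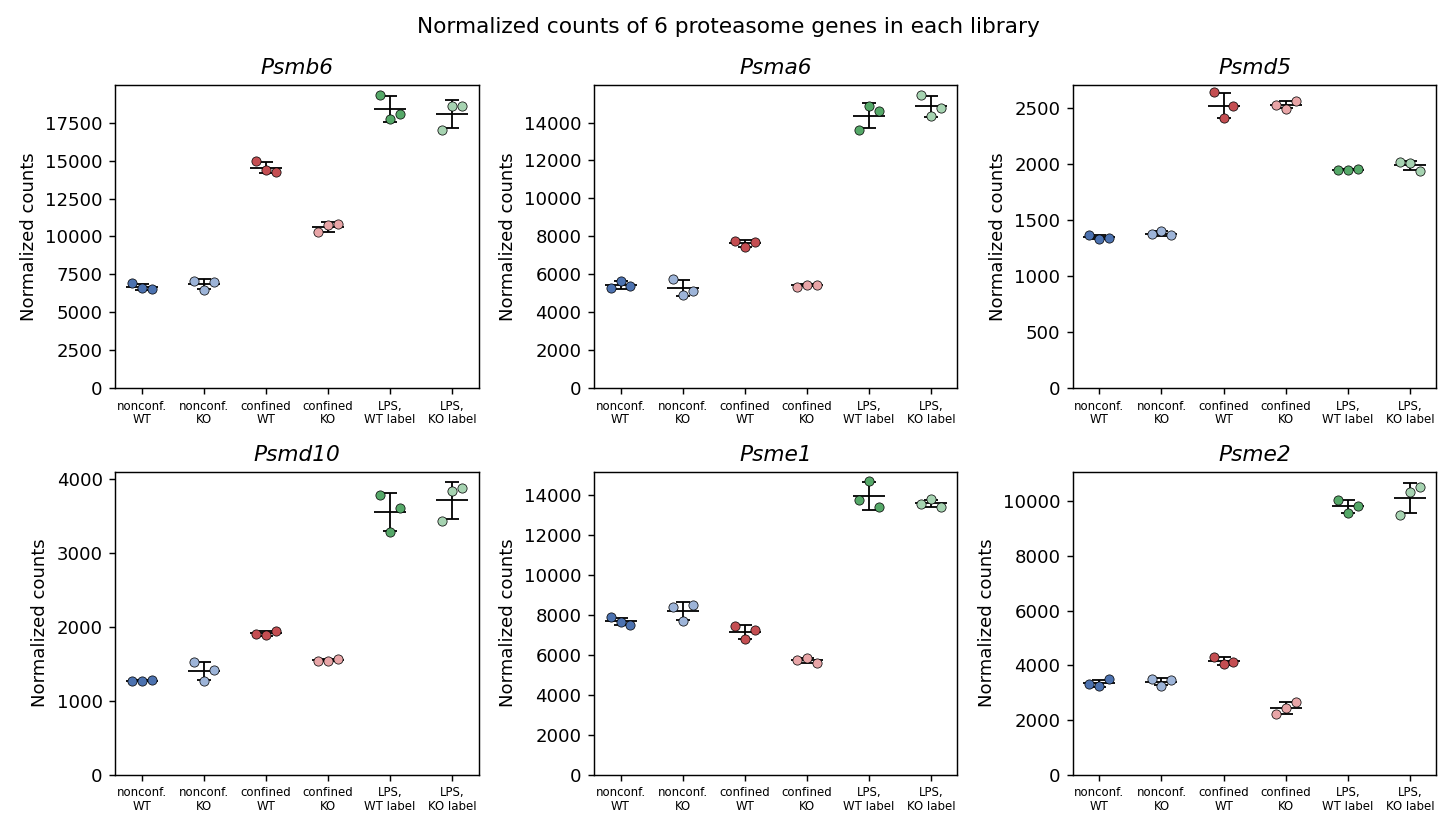
Normalized counts of 6 members in each of the 18 libraries, by group, with the mean and SD of 3 libraries per group. Confined cPLA_2_ WT libraries lie above confined cPLA_2_ KO libraries for *Psmb6*, *Psma6*, *Psmd10*, *Psme1* and *Psme2*, while *Psmd5* has 2413 to 2643 counts in confined libraries of both genotypes and 1329 to 1400 in nonconfined libraries.

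Genes that work with the members were read from fixed lists, and their counts stand beside the shares of all genes given above for each comparison. The immunoproteasome genes *Psmb8*, *Psmb9* and *Psmb10*, whose products replace the catalytic beta subunits, fell upon confinement in 3 of 3 cases in each genotype, and rose after LPS in 3 of 3 cases under each label. Scaled to the same total they again fell in 3 of 3 cases upon confinement, whereas after LPS 2 rose and *Psmb8* fell under each label. *Psmb9* had 5310, 5275 and 5269 normalized counts in nonconfined and 4841, 4722 and 4944 in confined cPLA_2_ WT libraries, and 5525, 4991 and 5560 in nonconfined and 2506, 2496 and 2438 in confined cPLA_2_ KO libraries. The drop was small in WT and large in KO cells, without overlap in either. The changes were −0.13 ± 0.04 (limma, adjusted p = 0.0176) and −1.11 ± 0.04 (adjusted p = 2.08e-14), and the interaction was −0.98 ± 0.06 (adjusted p = 5.41e-11). With the same total the changes were −0.35 (limma, adjusted p = 7.76e-07) and −1.15 (adjusted p = 3.56e-14), and the interaction was −0.79 (adjusted p = 4.42e-09). All 3 genes had a negative interaction, with a median of −0.35, and that of *Psmb10* was not called with the same total (−0.13, adjusted p = 0.277). In confined cPLA_2_ WT cells *Psmb6* rose while *Psmb9*, whose product takes the same place in the ring, fell.

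Of the 5 genes of core assembly, *Psmg1* to *Psmg4* and *Pomp*, 0 rose and 4 fell upon confinement in each genotype, with medians of −0.56 and −0.49. After LPS 1 rose and 3 fell under each label. *Psmg2*, a chaperone that pairs with *Psmg1* to guide the alpha ring, changed by −0.85 in cPLA_2_ WT and −0.51 in cPLA_2_ KO cells, while *Pomp*, which helps form the beta ring, changed by −0.00 and −0.03 and was not called. With libraries set to the same total all 5 fell in confined cPLA_2_ WT cells, *Pomp* by −0.23 (limma, adjusted p = 0.000798), 4 fell in confined cPLA_2_ KO cells, and 0 rose and 4 fell after LPS under each label. Upon confinement *Psmg1* to *Psmg4* fell in each genotype, whereas *Psmd5*, a chaperone of the base, rose. Among 6 further proteasome parts and partners (*Adrm1*, *Sem1*, *Psmf1*, *Ecpas*, *Usp14* and *Uchl5*), 3 rose and 1 fell in confined cPLA_2_ WT cells and 1 rose and 1 fell in confined cPLA_2_ KO cells, and at the same total 2 rose and 3 fell, and 1 rose and 1 fell.

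*Nfe2l1* encodes NRF1, the transcription factor that raises proteasome genes when the complex is inhibited, and *Nfe2l2* encodes its relative NRF2, which acts in the oxidative stress response. *Nfe2l1* had 12084, 11265 and 11446 normalized counts in nonconfined and 23316, 22740 and 22983 in confined cPLA_2_ WT libraries, and 10745, 11448 and 11318 in nonconfined and 15051, 13952 and 14182 in confined cPLA_2_ KO libraries. LPS libraries ranged from 24215 to 25772. The steps from nonconfined to confined KO, confined WT and LPS libraries did not overlap. The last step depends on scale, since the difference between confined and LPS cells of the WT label was −0.11 (limma, adjusted p = 0.0275) and turned to 0.17 with the same total (adjusted p = 0.00043). Confinement raised *Nfe2l1* by 0.99 ± 0.04 (limma, adjusted p = 1.12e-14) and 0.37 ± 0.04 (adjusted p = 2.61e-07), with an interaction of −0.62 ± 0.06 (adjusted p = 2.88e-08). For *Nfe2l2* the changes were 0.84 ± 0.06 (adjusted p = 2.7e-10) and 0.19 ± 0.06 (adjusted p = 0.0211), with an interaction of −0.65 ± 0.09 (adjusted p = 8.25e-06). The change of *Nfe2l2* in cPLA_2_ KO cells was 0.15 at the same total and not called (adjusted p = 0.0733). Of this list of 5 genes, which also holds *Ddi2*, *Ngly1* and *Vcp* for the maturation of NRF1, 4 rose and 0 fell upon confinement in each genotype, and 4 rose and 1 fell after LPS under each label. The counts at the same total were 3 rising and 1 falling in confined cPLA_2_ WT cells, 3 and 0 in confined cPLA_2_ KO cells, and 3 and 1, and 3 and 2, after LPS under the WT and KO labels. mRNA levels do not measure the processed NRF1 protein.

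Promoter windows from RefSeq, build GRCm38.p6, which differs from the build of the deposited table, span 250 bases before to 50 bases after a transcript start. Of the 39 members 32 had a window, and 3 of them had 2, which gave 35 windows. The letters TGACNNNGC, the core of the antioxidant response element to which NRF1 and NRF2 bind, were found on either strand in 6 of the 35 windows (17.1%) and in 12.4% of all 32851 windows. The members with this match were *Psmb5*, *Psmb6*, *Psmc6*, *Psmd9*, *Psmd12* and *Psme4*. The letters CCAAT, to which NF-Y binds, were found in 12 windows (34.3%, against 37.4% of all). GAAANNGAA, the core of an interferon response element, was found in 6 windows (17.1%, against 8.56% of all), those of *Psmb3*, *Psmb4*, *Psmc2*, *Psmd4*, *Psmd9* and *Psme1*. Of the other members described singly, *Psma6*, *Psmd1*, *Psmd5*, *Psmd10*, *Psmd11*, *Psme2* and *Psme3* had neither TGACNNNGC nor GAAANNGAA in their windows, and *Psmb1*, *Psmb7* and *Psma8* had no window. Both windows of *Psme2*, which fell in confined cPLA_2_ KO cells and rose after LPS, held none of the 3 motifs. A match describes the letters only, and the windows were not tested for binding.

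The windows of the catalytic genes *Psmb5* and *Psmb6*, which rose in both genotypes, and of *Psme1* and *Psme2*, which fell in confined cPLA_2_ KO cells and rose after LPS, are shown 5′ to 3′ on the strand of the gene. Capitals mark TGACNNNGC in the *Psmb5* window, at chr14:54617946-54618245 on the minus strand, and in the *Psmb6* window, at chr11:70525107-70525406 on the plus strand, and GAAANNGAA, here on the opposite strand, in the *Psme1* window, at chr14:55578244-55578543 on the plus strand. The *Psme2* window, at chr14:55591052-55591351 on the minus strand, has no capitals because it holds no match. All positions are in GRCm38.p6.
Psmb5: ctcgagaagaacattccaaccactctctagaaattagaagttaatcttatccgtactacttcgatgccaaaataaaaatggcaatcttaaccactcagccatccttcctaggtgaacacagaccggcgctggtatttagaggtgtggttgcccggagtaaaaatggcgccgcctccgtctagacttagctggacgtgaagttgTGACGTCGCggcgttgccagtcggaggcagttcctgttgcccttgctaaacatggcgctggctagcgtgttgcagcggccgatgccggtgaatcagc
Psmb6: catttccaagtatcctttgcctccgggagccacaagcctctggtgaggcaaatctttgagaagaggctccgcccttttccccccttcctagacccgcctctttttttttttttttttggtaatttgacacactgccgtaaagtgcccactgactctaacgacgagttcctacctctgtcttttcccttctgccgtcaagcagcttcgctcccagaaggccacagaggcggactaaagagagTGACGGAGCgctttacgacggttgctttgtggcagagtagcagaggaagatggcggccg
Psme1: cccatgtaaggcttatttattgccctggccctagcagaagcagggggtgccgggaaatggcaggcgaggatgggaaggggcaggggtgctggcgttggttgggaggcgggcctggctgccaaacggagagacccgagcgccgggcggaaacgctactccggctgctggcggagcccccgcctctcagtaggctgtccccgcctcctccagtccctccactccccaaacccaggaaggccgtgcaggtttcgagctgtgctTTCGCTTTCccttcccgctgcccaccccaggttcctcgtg
Psme2: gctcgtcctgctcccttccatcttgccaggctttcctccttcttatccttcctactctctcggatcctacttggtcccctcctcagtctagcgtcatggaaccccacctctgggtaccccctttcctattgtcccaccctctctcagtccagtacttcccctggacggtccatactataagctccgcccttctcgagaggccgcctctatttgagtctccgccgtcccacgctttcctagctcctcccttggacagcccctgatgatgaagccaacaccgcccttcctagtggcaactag

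Markers of other cell types were read from fixed lists because the culture also yields granulocytes and macrophages. By the methods these are removed by adhesion, granulocytes as nonadherent and macrophages as strongly adherent cells, and the loosely adherent fraction is kept as DCs. Some DC genes were abundant in all 18 libraries, such as *Cd74* with 189379 to 336000 and *Itgax* with 4194 to 7192 normalized counts. Others were lower, *Flt3* with 27.0 to 166, *Dpp4* with 94.8 to 626 and *Zbtb46* with 468 to 1379. In bulk RNA, fewer cells of a type and less RNA per cell cannot be told apart. Of the 9 DC genes, 1 rose and 7 fell in confined cPLA_2_ WT cells and 0 rose and 9 fell in confined cPLA_2_ KO cells. After LPS 7 rose and 0 fell under the WT label and 5 rose and 1 fell under the KO label. Of all genes tested 28.2% rose and 28.4% fell upon confinement in cPLA_2_ WT cells, and 22.8% and 23.4% in cPLA_2_ KO cells. After LPS 33.4% of all genes rose and 29.4% fell under the WT label, and 33.4% and 30.1% under the KO label. In nonconfined cPLA_2_ KO against cPLA_2_ WT cells 4.78% were higher and 4.11% lower. These shares apply to each marker list, and some counts lie near them, as for macrophage genes after LPS under the WT label.

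The 6 rows of eosinophil genes, of which *Prg2* was the most abundant, differed most between groups. Their summed normalized counts were 33270, 33142 and 33111 in nonconfined cPLA_2_ WT, 82113, 76099 and 78208 in nonconfined cPLA_2_ KO, 9622, 9153 and 9048 in confined cPLA_2_ WT and 24879, 24585 and 25455 in confined cPLA_2_ KO libraries. They were 47252, 27363 and 37905 in the libraries labelled LPS cPLA_2_ WT and 27352, 47523 and 38528 in those labelled LPS cPLA_2_ KO. KO libraries were higher than WT libraries in nonconfined and confined cells, confined libraries were lower than nonconfined ones, and the LPS labels covered the same range. Of the 6 rows, 5 fell upon confinement in each genotype, and 5 were higher and 1 lower in nonconfined cPLA_2_ KO cells. After LPS 0 rose and 1 fell under the WT label and 0 rose and 5 fell under the KO label. The KO-label count is set against the higher nonconfined cPLA_2_ KO libraries and can mix genotype with treatment.

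The 9 neutrophil genes, led by *S100a9*, summed to 238799, 243888 and 242238 in nonconfined cPLA_2_ WT, 369633, 332300 and 357470 in nonconfined cPLA_2_ KO, 154033, 146822 and 144607 in confined cPLA_2_ WT and 333095, 346079 and 330068 in confined cPLA_2_ KO libraries. LPS libraries had 308839, 290094 and 292202 under the WT label and 276728, 312383 and 294401 under the KO label. The sum was lower in confined than in nonconfined WT libraries, whereas the KO ranges overlapped. Of the 9 genes 9 fell upon confinement in cPLA_2_ WT cells and 4 in cPLA_2_ KO cells, and 7 were higher in nonconfined cPLA_2_ KO than cPLA_2_ WT cells. After LPS 4 rose and 3 fell under the WT label and 1 rose and 6 fell under the KO label.

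The 8 mast cell or basophil genes, led by *Cpa3* and with *Tpsab1* at 0 in all libraries, summed to 6243, 6452 and 6300 in nonconfined cPLA_2_ WT, 9832, 9441 and 9355 in nonconfined cPLA_2_ KO, 2681, 2511 and 2549 in confined cPLA_2_ WT and 4183, 4077 and 4221 in confined cPLA_2_ KO libraries. Under LPS they summed to 6205, 6065 and 6084 with the WT label and 5940, 6351 and 6523 with the KO label. They followed the order of the eosinophil genes in nonconfined and confined cells, and of the 7 genes tested 6 fell upon confinement in cPLA_2_ WT and 7 in cPLA_2_ KO cells. After LPS 1 rose and 2 fell under the WT label and 0 rose and 5 fell under the KO label. The 8 macrophage genes, led by *Cd68*, summed to 29292 to 40095 over the 18 libraries, and upon confinement 1 rose and 4 fell in cPLA_2_ WT cells and 1 rose and 5 fell in cPLA_2_ KO cells. After LPS 2 of them rose and 3 fell under the WT label and 2 rose and 5 fell under the KO label.

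The 8 T or B cell genes, led by *Cd3g*, summed to 2508, 2522 and 2467 in nonconfined cPLA_2_ WT, 3228, 2929 and 3134 in nonconfined cPLA_2_ KO, 812, 844 and 715 in confined cPLA_2_ WT and 1071, 1279 and 1161 in confined cPLA_2_ KO libraries. LPS libraries had 560, 516 and 538 under the WT label and 455, 592 and 582 under the KO label. The sums were highest in nonconfined and lowest in LPS libraries, without overlap. Upon confinement 4 of the 8 genes fell and 0 rose in each genotype, and after LPS 2 rose and 3 fell under each label. *Cd3g* changed by −2.51 and −2.81 after LPS under the WT and KO labels (limma, adjusted p = 2.27e-16 and 3.18e-17). In nonconfined cPLA_2_ KO against cPLA_2_ WT cells, 3 DC genes were higher and 1 lower, and 4 macrophage genes were higher and 0 lower. The part of these marker differences in the results on proteasome genes was not tested. Members that changed upon confinement or after LPS were measured in cultures that also differed in these markers. The same holds for members that differed between the genotypes in confined or nonconfined cells.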

How the data were processed

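The deposited values are a gene-level signal, for which the authors mapped reads with STAR 2.7.5a to GRCm39, counted them on the Mouse FAST DB annotation (featureCounts 1.5.0 is among the tools named) and divided the counts by DESeq2 size factors in R 3.5.3. Whole reads were recovered for 100% of values within 0.01 and gave 33027230 to 61300021 reads per library. The libraries were strand-specific, and the sources do not say whether counting used the strand. Log2 of the normalized count plus 1 was fitted with limma 3.58.1 (R 4.3.3) as 6 group means over 18 libraries with a trended variance, and p-values were adjusted by Benjamini-Hochberg over 17875 genes. The code was tried on simulated data first. Alternatives used edgeR 4.0.16 and DESeq2 1.42.0 on recovered reads, TMM scaling, the same total per library, other filters and pseudocounts, the compared groups alone, a replicate block, other call rules and each library left out. Exchanged LPS labels and values relative to the median of all genes were added after seeing the data. Genes described singly were *Pla2g4a*, the 3 catalytic beta genes, the 4 activators and, per comparison, the 3 largest increases and 3 largest decreases among called members, and examples from the lists were picked after their values were seen. Lists covered the immunoproteasome, core assembly, other parts, transcription, shuttle factors and markers of 6 cell types, and a further list is not reported here except for its genes with a called interaction. Members and lists were chosen with earlier results of these data known.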

Additional observations from a re-analysis of the deposited data

Results flagged for a closer look

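For 20 of 68 genes of the members and pathway lists, the effect of confinement differed between cPLA_2_ WT and cPLA_2_ KO cells by the interaction term of limma at an adjusted p under 0.05. This was the case for 25.8% of all genes tested, with both directions counted. Among the 68 it held for 7 of 39 members, a share below that of all genes, and for 13 of 29 other list genes, a share above it. By limma and with both directions counted, the share was near that of all genes only when these sets were pooled, a description with no test. For the negative direction alone, the share of the members was near that of all genes. Among the members the interaction was −0.79 for *Psme2*, −0.49 for *Psmb6*, −0.45 for *Psma6*, −0.44 for *Psmd10*, −0.41 for *Psme1*, −0.21 for *Psmb7* and −0.18 for *Psmc4*. At the same total per library *Psmb7* (−0.02) and *Psmc4* (0.01) were not called, and 15 members were called positive. Among the immunoproteasome genes it was −0.98 for *Psmb9*, −0.35 for *Psmb8* and −0.32 for *Psmb10*. In the transcription list it was −0.65 for *Nfe2l2*, −0.62 for *Nfe2l1*, −0.36 for *Ngly1* and 0.41 for the joined entry of *Ddi2* and *Rsc1a1*. Of these, the call of *Ngly1* was lost with the same total per library. Among other parts and assembly factors it was −0.48 for *Psmf1*, −0.24 for *Sem1*, 0.18 for *Ecpas* and 0.34 for *Psmg2*, and among ubiquitin genes −0.29 for *Uba1* and −0.21 for *Ubb*. The calls of *Sem1* and *Psmb10* were also lost with the same total, whereas *Usp14*, *Adrm1*, *Psmg1* and *Psmg3* were then called positive. Whether the calls of *Uba1* and *Ubb* held at the same total was not tested.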

How the results depend on the processing

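Of 6620 values of the 39 members under alternative settings, 6279 kept direction and side of the threshold, 165 lost and 86 gained a call and 90 reversed, all 90 with the same total per library. For the 89 results of members named by rule, 1431 of 1509 values kept both, 56 lost and 15 gained a call and 7 reversed. The 7 also came from the same total, which shifts the median of all genes by its construction: *Psme3* was −0.44 and −0.32 after LPS under the WT and KO labels, and in confined against LPS cells *Psmb5* was 0.08 and 0.34, *Psme4* 0.25 and 0.11, and *Psme3* under the KO label 0.21. Without that setting 0 of 1420 of these values reversed. Counts are given as members higher/lower. With the same total they were 13/11 for confinement in WT, 16/6 in KO, 15/5 for the interaction, 15/5 for KO against WT confined and 0/3 nonconfined cells, 13/10 and 19/11 for LPS under the WT and KO labels, and 9/10 and 14/10 for confined against LPS cells. A log2 change above 1 as well, a stricter rule, gave 1/0, 0/0, 0/0, 0/0, 0/0, 5/0, 6/0, 0/1 and 0/4 in the same order, beside 11.4/7.62, 6.43/5.53, 1.11/6.56, 2.79/7.31, 0.850/0.302, 15.0/12.3, 15.0/12.9, 6.32/7.51 and 10.4/12.6% of all genes. Unadjusted p of at most 0.05 with a fold change of at least 1.5 gave 4/0, 2/0, 0/1, 0/1, 0/0, 16/0, 19/1, 0/6 and 1/9, beside 18.3/16.2, 12.6/11.0, 5.70/10.8, 7.64/11.8, 3.36/2.23, 22.8/20.2, 22.8/21.1, 12.8/13.4 and 18.9/18.8% of all genes. The negative interaction counted 13 with TMM scaling, 13 by edgeR and 11 by DESeq2. For KO against WT nonconfined cells, TMM scaling and a filter of 100 counts each gave 1 higher, DESeq2 1 higher and 2 lower, and no filter 0 lower. The filter of 100 gave 1 higher for KO against WT confined cells. Under LPS of the WT label, TMM scaling, edgeR, DESeq2 and the compared groups alone each gave 1 lower, *Psmd9*, beside 31.4%, 31.4%, 31.0% and 29.7% of all genes. Under the KO label, edgeR, DESeq2, no filter, a filter of 100 (which removes *Psma8*), the compared groups alone, a pseudocount of 0.5, the replicate block and exchanged labels, added after seeing the data, each gave 0 lower. Of all genes 31.9% were lower there by edgeR, 31.2% by DESeq2 and 28.3% with the compared groups alone. For confined against LPS cells of the KO label, both filters, the groups alone and exchanged labels gave 1 higher, and exchanged labels gave 1 higher under the WT label. Apart from the filter of 100 and stricter rules, the cause was not tested. Leaving out 1 library gave 26–27 higher and 1–2 lower for confinement in WT, 15–20 and 2–4 in KO, 0–0 and 5–13 for the interaction, 0–1 and 12–17 for KO against WT confined cells, 0–2 and 0–1 nonconfined, 35–35 and 0–0 for LPS under the WT label, 35–36 and 0–1 under the KO label, 0–0 and 0–0 between labels, and 1–2 and 29–34, and 1–2 and 34–34, for confined against LPS cells. With the replicate block, pairing libraries by replicate number, 26 members rose upon confinement in WT cells. The numbers do not pair libraries, since in no comparison did all 3 correlations pass 0.1.

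With 3 libraries per group, small changes can be missed. The same total and the deposited size factors differ in which members rise or fall, and the reads alone do not say which scale follows RNA per cell. *Psma8*, at 8.49 to 33.1 counts, is limited by depth.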

Other observations

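Of the 5 shuttle factor genes, whose products carry ubiquitinated proteins to the proteasome, 1 rose and 2 fell upon confinement in each genotype, and 3 rose and 2 fell after LPS under each label. Of all genes 28.2% rose and 28.4% fell upon confinement in cPLA_2_ WT cells, and 22.8% and 23.4% in cPLA_2_ KO cells. After LPS these shares were 33.4% and 29.4% under the WT label and 33.4% and 30.1% under the KO label. At the same total per library 0 rose and 4 fell in confined cPLA_2_ WT cells, 1 rose and 2 fell in confined cPLA_2_ KO cells, and 0 rose and 5 fell after LPS under each label. Beside these, 20.0% of all genes rose and 41.3% fell in confined cPLA_2_ WT cells, and 20.8% and 25.9% in confined cPLA_2_ KO cells. For LPS the shares on that scale were 17.8% and 52.0% under the WT label and 18.3% and 51.4% under the KO label.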
